A study of Mus musculus with 27 samples.

Results

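Spi1, which encodes PU.1, and 7 other genes of the ETS family (Ets2, Fli1, Elf1, Elf4, Etv3, Etv6 and Elk3) were followed in the chromatin of mouse Kupffer cells, macrophages that reside in the liver. The genes were given by name and were found by the gene that the deposited H3K27ac table assigns to each window. They make up 8 of the 16038 genes with a window and hold 141 of the 70300 windows. Binding sites of LXR, ATF3 and P300 were counted between the outermost windows of each gene and 5 kb beyond them.

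The NASH group consisted of C57BL/6J mice fed a NASH diet, which brings about the fatty and inflamed liver of non-alcoholic steatohepatitis, and the control group of C57BL/6J mice on a Control diet. The cells of both groups were sorted for high F4/80 and for surface Tim4, per the labels, which name no genetic change. Of the 27 samples of the series, 4 gave the H3K27ac values used here (2 libraries per diet), and 2 libraries per diet and factor lie behind each list of LXR, ATF3 and P300 sites. The labels do not say whether libraries came from separate mice, so p-values measure the spread between libraries, which may be technical. The files' headers name the open chromatin list behind the windows for 20 weeks on the diet and the NASH lists of LXR and P300 differently, so how long mice were fed may differ between assays.

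ETS factors share a DNA-binding domain that reads the core letters GGAA. PU.1 is required for the macrophage lineage and binds enhancers of myeloid cells together with C/EBP, IRF, RUNX and AP-1 factors. Ets2 and Fli1 are activators, Ets2 being a target of ERK signalling, Fli1 being known from blood and endothelial cells. Elf1 and Elf4 are activators of haematopoietic cells, Elf4 with a role in interferon responses, while Etv3, Etv6 and Elk3 are mostly repressors. Elk3 is a partner of serum response factor. H3K27ac is a histone acetylation of active promoters and enhancers, P300 is an acetyltransferase that places it, LXR is a nuclear receptor for oxysterols and ATF3 is a stress-induced factor that binds AP-1 and related sites.

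The promoter table of RefSeq (GRCm38.p6, the sequence of mm10) matched 6 of the 8 genes with 8 promoters. The 250 bases before the start were searched on both strands for an ETS core (CGGAAG), the PU.1 site GAGGAAGT, the AP-1 site TGANTCA, the CRE TGACGTCA and the DR4 element of LXR. These were found in 13.6%, 2.44%, 6.75%, 1.55% and 0.0152% of the 32851 promoters of the table, in that order. CGGAAG and the PU.1 site share GGAAG but differ in the base before it, and the CRE is longer than the AP-1 site by a base, so no match was counted under both motifs of a pair. Among the 8 promoters, Etv3 held 2 ETS cores, 147 and 71 bases before the start, and an inner promoter of Elf1 and the promoter of Elf4 held 1 AP-1 site each, 23 and 39 bases before the start. No other match to these letters was found in the 8 windows searched.

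Of these promoters, 4 are shown for their ATF3 sites: Etv3, with a site in NASH and none in control, Ets2, with a site in control and none in NASH, and the inner Elf1 promoter and the Elf4 promoter, with sites in both diets that cover the AP-1 letters. ATF3 sites also overlapped windows over promoters that are not shown and hold no AP-1 match. These were Etv6 (66 bp, both diets), the outer Elf1 promoter (-11 bp, NASH alone) and another Elf4 promoter (8825 bp, control alone). Capitals mark the ETS cores in Etv3 and the AP-1 sites in Elf1 and Elf4. The positions are chr3:87525328-87525577 (plus strand) for Etv3, chr16:95702157-95702406 (plus) for Ets2, chr14:79515424-79515673 (plus) for Elf1 and chrX:48463133-48463382 (minus) for Elf4.
Etv3: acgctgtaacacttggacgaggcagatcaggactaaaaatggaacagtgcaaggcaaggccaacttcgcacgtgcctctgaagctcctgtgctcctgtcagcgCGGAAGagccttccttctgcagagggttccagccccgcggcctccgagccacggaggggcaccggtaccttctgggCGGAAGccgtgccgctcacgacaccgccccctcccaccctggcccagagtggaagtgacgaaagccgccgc
Ets2: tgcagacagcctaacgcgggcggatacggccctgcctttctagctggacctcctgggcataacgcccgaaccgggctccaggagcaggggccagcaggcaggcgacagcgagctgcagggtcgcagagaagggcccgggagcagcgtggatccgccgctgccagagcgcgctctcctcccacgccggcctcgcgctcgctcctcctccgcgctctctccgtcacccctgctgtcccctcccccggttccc
Elf1, inner promoter: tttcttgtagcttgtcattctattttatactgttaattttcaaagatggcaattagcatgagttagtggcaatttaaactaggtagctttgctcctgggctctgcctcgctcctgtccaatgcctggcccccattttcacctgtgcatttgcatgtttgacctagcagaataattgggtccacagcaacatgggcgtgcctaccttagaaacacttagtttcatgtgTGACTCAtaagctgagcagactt
Elf4: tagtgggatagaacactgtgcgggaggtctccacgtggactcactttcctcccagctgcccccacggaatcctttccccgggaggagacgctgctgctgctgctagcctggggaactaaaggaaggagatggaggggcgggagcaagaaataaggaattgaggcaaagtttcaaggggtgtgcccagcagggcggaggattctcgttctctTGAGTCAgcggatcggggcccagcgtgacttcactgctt

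H3K27ac was given as tags per window that the authors scaled to a total of 10000000 in each library (normalised tags). The libraries held 18749728 and 19231109 tags in NASH and 9468035 and 22615879 in control, of which 7.91% to 9.60% fell in windows, and tags per window differed between libraries of 1 diet by more than sampling noise (chi-square per degree of freedom of 1.93 in NASH and 2.36 in control). A window without a tag allows up to 1.60 and 1.56 normalised tags in the NASH libraries and up to 3.17 and 1.33 in the control libraries (3 tags, counting error only). Windows or gene sums were called at an adjusted p under 0.05 in limma's test on log2(value + 1), fitted over 35947 windows or 11593 genes that passed a filter on low values, and windows also needed a log2 change of at least 1. All windows together lay lower in NASH under the authors' scaling, by a median log2 change of -0.26 over windows and -0.29 over genes, and close to 0 under TMM, a scaling that centres the bulk of windows. Log2 changes are therefore given relative to that median, and calls under TMM stand beside those under the authors' scaling. The limma p-values under the authors' scaling, and the calls made with them, test the change before that median is taken off (the unshifted change), here and in all results that follow. A change relative to the median has its test under TMM or in edgeR. In bulk chromatin, fewer cells that carry a mark and less of the mark per cell cannot be told apart.

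At the level of whole genes and under the authors' scaling, Etv3 was raised in NASH Kupffer cells and Spi1 and Ets2 were lowered, while Fli1, Elf1, Elf4, Etv6 and Elk3 did not pass the test. Thus 1 of 8 genes was raised, where 2.89% of all genes were, and 2 of 8 were lowered, where 11.0% were. Under TMM the call of Etv3 held and 0 of the 8 were lowered, against 7.25% raised and 6.19% lowered among all genes. The edgeR test on whole tags called Etv3 and Elk3 raised and 0 lowered, against 7.39% and 6.59%. Both NASH libraries lay above both control libraries for Etv3 and Elk3 (12.0% of all genes) and below them for Spi1, Ets2, Fli1, Elf1 and Elf4 (46.0% of all genes).

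**Figure D1:**
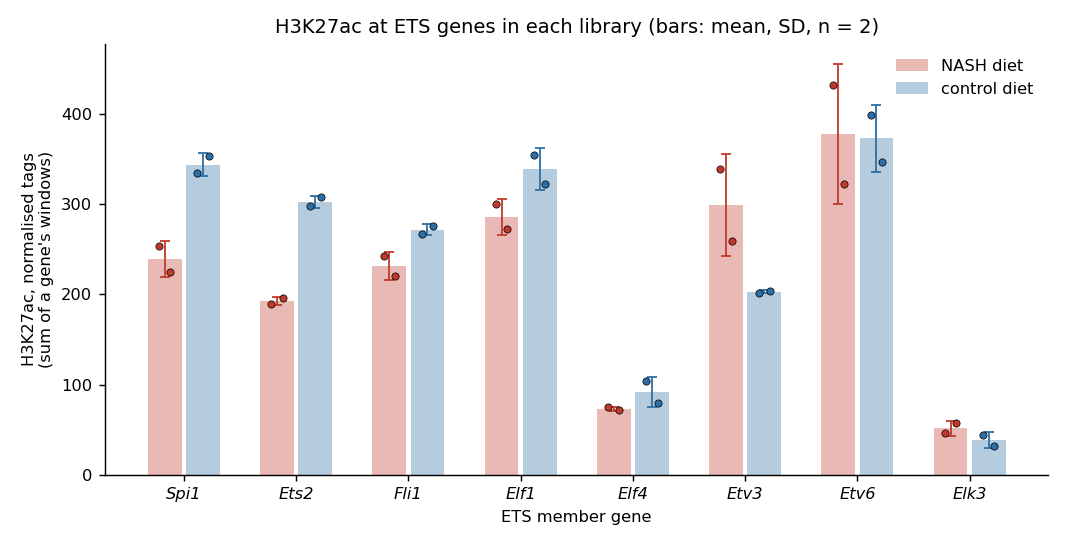
H3K27ac of each ETS gene, as the sum of its windows in normalised tags; bars are means with SD (n = 2 per diet, NASH left of control) and points are libraries. The Etv3 points lie higher in NASH, those of Spi1 and Ets2 lower, and those of Etv6 overlap between the diets.

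The gene sum of Etv3, a repressor linked to the growth arrest of maturing macrophages, was 339 and 259 normalised tags in the NASH libraries, against 202 and 204 in the control libraries. Both NASH values were above control, but they differed from each other by more than the control values did. The means were 299 ± 56.4 in NASH and 203 ± 1.48 in control (SD, n = 2 each), a ratio of 1.48. The unshifted log2 change of 0.55 (SE 0.15) had an adjusted p of 0.0224 in limma. Taken relative to the median it was 0.83, with an adjusted p of 0.000286 under TMM. Under the authors' scaling the adjusted p was 0.253 without NASH library 1 and 0.0559 with no filter on low values. Of all genes tested, Rpl18, Rgs1 and Tubb4b had the profile over the 4 libraries most like that of Etv3 (Euclidean distances of 0.0719, 0.0770 and 0.0878 between centred log2 values).

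Spi1 had 253 and 225 normalised tags in the NASH libraries, against 335 and 353 in the control libraries. The groups did not overlap, and the mean of 239 ± 20.3 in NASH was 0.695 times that of 344 ± 12.7 in control (SD, n = 2 each). The unshifted log2 change of -0.53 (SE 0.14) had an adjusted p of 0.0151 in limma, which was 0.180 without NASH library 2. The change relative to the median was -0.24, and it did not pass the test under TMM (adjusted p = 0.363) or in edgeR (0.329). That value was -0.09 without control library 2 and -0.37 without control library 1. Gm5475, Msrb2 and Zfp825 had the profiles nearest to that of Spi1, at distances of 0.0339, 0.0342 and 0.0362 over the same 4 libraries.

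Ets2 was at 189 and 196 normalised tags in the NASH libraries, against 298 and 307 in the control libraries. The difference was wide beside the spread within each diet, with means of 192 ± 4.39 in NASH and 303 ± 6.68 in control (SD, n = 2 each) and a ratio of 0.636. Its unshifted log2 change of -0.65 (SE 0.14) had an adjusted p of 0.00441 in limma, which was 0.0515 without NASH library 2. Relative to the median the change was -0.36, and -0.35 under TMM and -0.37 in edgeR, where it did not pass the test (adjusted p = 0.141 and 0.118). Without control library 2 it was -0.23. Of the 20 Ets2 windows, 13 had an open chromatin peak in the control list alone, 7 in both lists and 0 in the 20-week list alone. Across the whole table, windows of the control list alone had a median log2 change of -0.18 relative to all windows. The Ets2 sum was not tested without its 13 windows of that list.

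Elk3 had the fewest tags of the 8, with 45.9 and 57.2 normalised tags in the NASH libraries, against 44.4 and 32.3 in the control libraries. These came from 86 and 110 tags in NASH and from 42 and 73 tags in control. The unshifted log2 change of 0.43 (SE 0.28) had an adjusted p of 0.318 in limma. It was 0.71 relative to the median, with an adjusted p of 0.0510 under TMM, and 0.77 in edgeR, with an adjusted p of 0.0362. In DESeq2, on the same whole tags, the change was 0.76 and did not pass the test (adjusted p = 0.2455). Leaving out 1 library under the authors' scaling gave 0.47 (without NASH library 2) to 0.94 (without NASH library 1). NASH library 1 lay just above control library 1, and the groups did not overlap.

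Etv6, a repressor needed by blood stem cells, held the largest mean sums, with 432 and 322 normalised tags in the NASH libraries, against 399 and 346 in the control libraries. Fli1 was at 243 and 220 in the NASH libraries, against 267 and 276 in the control libraries. The diets overlapped at Etv6 and were apart at Fli1. Elf1 held 300.3 and 272 normalised tags in the NASH libraries, against 355 and 322 in the control libraries. The values of Elf4 were 74.7 and 71.8 in the NASH libraries, against 104 and 80.02 in the control libraries. The unshifted log2 changes of Fli1, Elf1 and Elf4 were -0.23, -0.24 and -0.31, with adjusted p-values in limma of 0.297, 0.242 and 0.357, and that of Etv6 was close to 0 (0.985). Relative to the median, Etv6, Fli1, Elf1 and Elf4 had changes of 0.29, 0.05, 0.04 and -0.03, with adjusted p-values under TMM of 0.226, 0.868, 0.894 and 0.957. The small changes of Elf1, Elf4 and Fli1 changed sign in some settings, so no direction is given for them.

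Per kb of window, the mean level was highest at Spi1 in both diets, at 109 and 96.3 normalised tags per kb in NASH and 144 and 151 in control. Elf1 followed with 103 and 93.6 in NASH and 122 and 111 in control, and Etv3 stood at 102 and 77.8 in NASH and 60.5 and 61.1 in control. In the NASH libraries these 3 genes overlapped each other and lay above the rest, whereas in control Spi1 was above Elf1 and Elf1 was above all others. Ets2 reached 45.8 and 47.3 per kb in NASH and 72.1 and 74.4 in control, where it exceeded Etv3. Fli1 stood at 51.2 and 46.5 in NASH and 56.4 and 58.2 in control, and Etv6 at 56.2 and 41.9 in NASH and 51.9 and 45.01 in control. Both lay below Ets2 in control, while in NASH the 3 genes were close to each other, with means of 49.04 at Etv6, 48.9 at Fli1 and 46.6 at Ets2. The lowest were Elf4 (25.6 and 24.6 in NASH, 35.5 and 27.5 in control) and Elk3 (24.5 and 30.5 in NASH, 23.6 and 17.2 in control). With NASH, Etv3 thus stood above Ets2 in both libraries, and in control below it in both.

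Of the 141 windows, 82 passed the filter on low values and 59 did not. Among the tested windows 1 was raised, at Etv3, and 1 was lowered, at Ets2, where 2.00% and 4.59% of all windows were. Under TMM 2 were raised, both at Etv3, and 1 was lowered, at Ets2, against 3.32% and 2.51% of all windows, and edgeR called 2 and 1 against 3.78% and 3.14%. Both NASH libraries lay above both control libraries in 15 of the 82 windows (15.0% of all windows) and below them in 28 (38.1%). The median log2 change of a gene's tested windows, relative to all windows, was 1.13 at Elk3 (4 windows), 0.81 at Etv3 (9), 0.40 at Etv6 (19), 0.17 at Elf4 (9), 0.11 at Elf1 (11) and at Fli1 (12), -0.24 at Spi1 (9) and -0.42 at Ets2 (9). Over all 82 it was 0.12, with 51 windows above and 31 below the median of all windows.

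**Figure D2:**
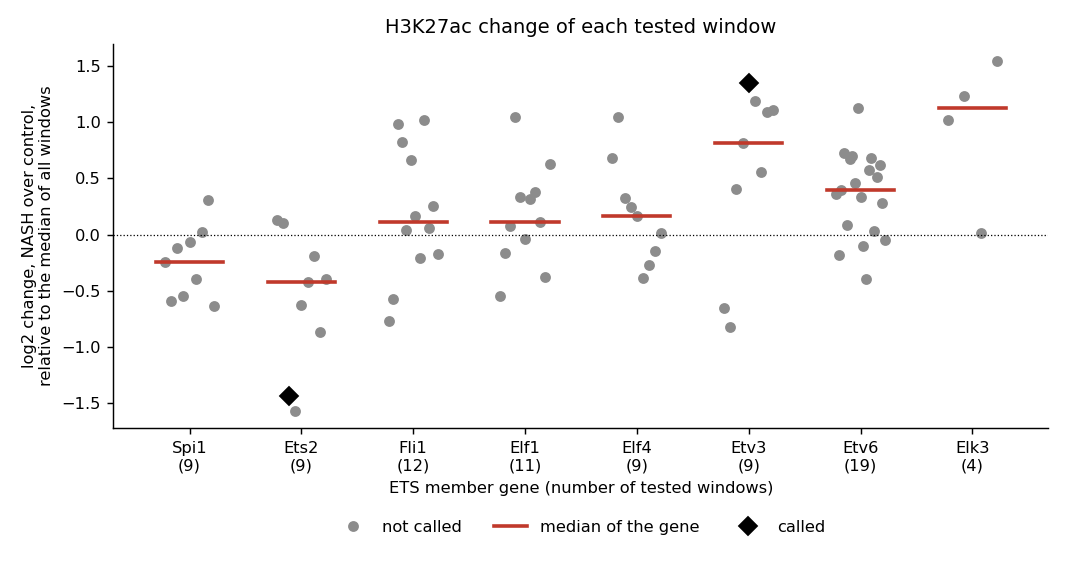
Log2 change of H3K27ac (NASH over control, relative to the median of all windows) for each of the 82 tested windows, ordered by position within a gene; red lines are medians and black diamonds are called windows. The called windows are 1 at Etv3, at 1.35, and 1 at Ets2, at -1.44, and all 4 Elk3 windows lie above 0.

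The raised Etv3 window lay between genes, at -9532 bp from the start (chr3:87515943-87516149, mm10). It held 63.5 and 57.7 normalised tags in the NASH libraries, against 27.5 and 28.3 in the control libraries. The diets were far apart and the libraries of a diet close together, with an unshifted log2 change of 1.09 (SE 0.26) and an adjusted p of 0.0168 in limma. That p was 0.134 and 0.127 without NASH library 1 or 2 and 0.0824 with no filter. Relative to the median the change was 1.35, with an adjusted p of 0.00455 under TMM and 0.00199 in edgeR. The next window, at -9877 bp (chr3:87515598-87515805), had 50.7 and 36.9 in the NASH libraries, against 33.8 and 25.2 in the control libraries, with an adjusted p of 0.260 in limma.

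The strongest Etv3 window was in the 5' UTR of exon 1, 389 bp past the start (chr3:87525867-87526067), with 108 and 74.9 normalised tags in the NASH libraries, against 42.3 and 59.3 in the control libraries. Its unshifted log2 change of 0.83 (SE 0.26) met neither the p nor the size needed for a call in limma (adjusted p = 0.0551). Set against the median of all windows it was 1.09, and the window was called under TMM (adjusted p = 0.0183) and in edgeR (0.0130). The open chromatin peak under this window was in the control list only, and that under the raised window at -9532 bp was in both lists. The promoter window itself (-10 bp) overlapped between the diets, with 43.7 and 27.04 in the NASH libraries, against 30.6 and 25.2 in the control libraries. Not all windows that the table gives to Etv3 went the same way. The 2 windows at -26704 and -26266 bp, inside the last intron of the neighbouring gene Fcrl5, had log2 changes of -0.65 and -0.82 relative to the median, with adjusted p-values of 0.316 and 0.307 under TMM.

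At Ets2 the lowered window was in intron 1, 944 bp past the start (chr16:95703251-95703451). Its values were 11.2 and 11.96 normalised tags in the NASH libraries, against 38.02 and 41.6 in the control libraries. The unshifted log2 change of -1.70 (SE 0.32) had an adjusted p of 0.00407 in limma, which stayed under 0.05 when any 1 library was left out. This window changed by -1.44 relative to the median, with an adjusted p of 0.0110 under TMM, 0.00525 in edgeR and 0.0683 in DESeq2. The open chromatin peak under this window was in the control list only, and no LXR, ATF3 or P300 site of either diet overlapped it.

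The promoter window of Ets2 (6 bp past the start) had an adjusted p of 0.770 in limma, with 37.9 and 34.3 normalised tags in the NASH libraries, against 41.2 and 39.4 in the control libraries. The strongest Ets2 window (6370 bp, intron 2) had 72.0 and 68.6 in the NASH libraries, against 86.6 and 107 in the control libraries, with an adjusted p of 0.238 in limma. Beside the promoter, the 1818 bp window had the largest change relative to the median of the 82 tested windows, -1.57, on 0.530 and 2.08 normalised tags in NASH, below or near the floor, and 6.34 and 7.07 in control (adjusted p = 0.132 under TMM).

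At Spi1 no window was called. In 7 of 9 tested windows both NASH libraries lay below both control libraries, against 38.1% of all tested windows. The 9 windows share the same 4 libraries and were not tested as a set. The strongest, in intron 1 (553 bp past the start), had 46.9 and 55.1 normalised tags in the NASH libraries, against 76.05 and 85.8 in the control libraries (adjusted p = 0.0991 in limma). The promoter window (40 bp) overlapped between the diets, with 34.7 and 23.4 in the NASH libraries, against 33.8 and 38.5 in the control libraries. Upstream, the window at -12301 bp had 58.7 and 47.8 in the NASH libraries, against 69.7 and 81.4 in the control libraries. Its neighbour at -11978 bp held 11.2 and 15.1 in the NASH libraries, against 31.7 and 18.6 in the control libraries. The next windows downstream were at -10155 bp, with 17.6 and 12.5 in the NASH libraries, against 17.96 and 21.2 in the control libraries, and at -7452 bp, with means of 15.5 ± 1.58 in NASH and 27.8 ± 2.46 in control (SD, n = 2 each). The window at -4998 bp did not pass the filter, with 4.80 and 4.68 in the NASH libraries, against 9.51 and 4.42 in the control libraries. Adjusted p-values of the upstream windows that were tested ran from 0.144 to 0.567 in limma.

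The region about 14 kb upstream of Spi1, where a well studied enhancer of this gene lies in the mouse, was given by the table to the neighbouring gene Slc39a13. It held 5 windows, at -16392 to -13604 bp from Spi1, none of them called. The sum of these 5 windows was 124 and 110 normalised tags in the NASH libraries, against 123 and 134 in the control libraries, so the diets overlapped there. At -13604 bp the values were 21.9 and 17.7 in the NASH libraries, against 34.9 and 20.3 in the control libraries. Upstream is counted here from the start used for the distances. The annotated span of Spi1 (chr2:91082374-91115759) begins before that start. It takes in the window at -13604 bp and those from -12301 to -4998 bp. Adding the 5 windows to those of Spi1, a step chosen after the values were seen, gave sums of 378 and 335 in the NASH libraries, against 457 and 487 in the control libraries, and moved the ratio of means to 0.754, against 0.695 without them.

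No window of Fli1, Etv6, Elf1, Elf4 or Elk3 was called. The Fli1 promoter window (71 bp) had its highest mean over the 4 libraries, with 58.7 and 45.8 normalised tags in the NASH libraries, against 63.4 and 78.3 in the control libraries. Its smallest adjusted p (0.131 in limma) was at 66641 bp, with 13.9 and 6.76 in the NASH libraries, against 20.1 and 21.7 in the control libraries. Both windows had both NASH libraries below control. Etv6 had its nearest window at 66 bp, with 62.4 and 51.0 in the NASH libraries, against 98.2 and 60.1 in the control libraries. Its strongest window (-462 bp) overlapped between the diets at 85.9 and 72.8 in the NASH libraries, against 76.05 and 71.2 in the control libraries. At 37447 bp, where its adjusted p was smallest (0.284 in limma), it had 12.3 and 12.5 in the NASH libraries, against 19.01 and 21.2 in the control libraries. Of the 3 Etv6 windows named, the last had no overlap between the diets.

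At Elf1 the strongest window (-11 bp, which the table annotates to the promoter of Wbp4) had 59.2 and 67.6 in the NASH libraries, against 85.6 and 84.5 in the control libraries. The Elf1 window with the smallest adjusted p (0.107 in limma) lay at -351 bp, with 30.9 and 33.3 in the NASH libraries, against 77.1 and 41.6 in the control libraries. The control libraries were far apart there. Elf4 was weak throughout, its promoter window at 5.33 and 3.12 in the NASH libraries, against 4.22 and 11.1 in the control libraries. At 9843 bp, its strongest window and the one with the smallest adjusted p (0.357 in limma), Elf4 had 8.0 and 13 in the NASH libraries, against 20.1 and 13.7 in the control libraries. Both Elf4 windows held few tags, and the first did not pass the filter. Elk3 had 4.27 and 5.20 normalised tags at 152 bp in the NASH libraries, against 1.06 and 1.33 in the control libraries, where the control values are at or under the floor. Its highest mean was at 48818 bp, with 8.0 and 9.36 in the NASH libraries, against 9.51 and 11.5 in the control libraries.

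**Figure D3:**
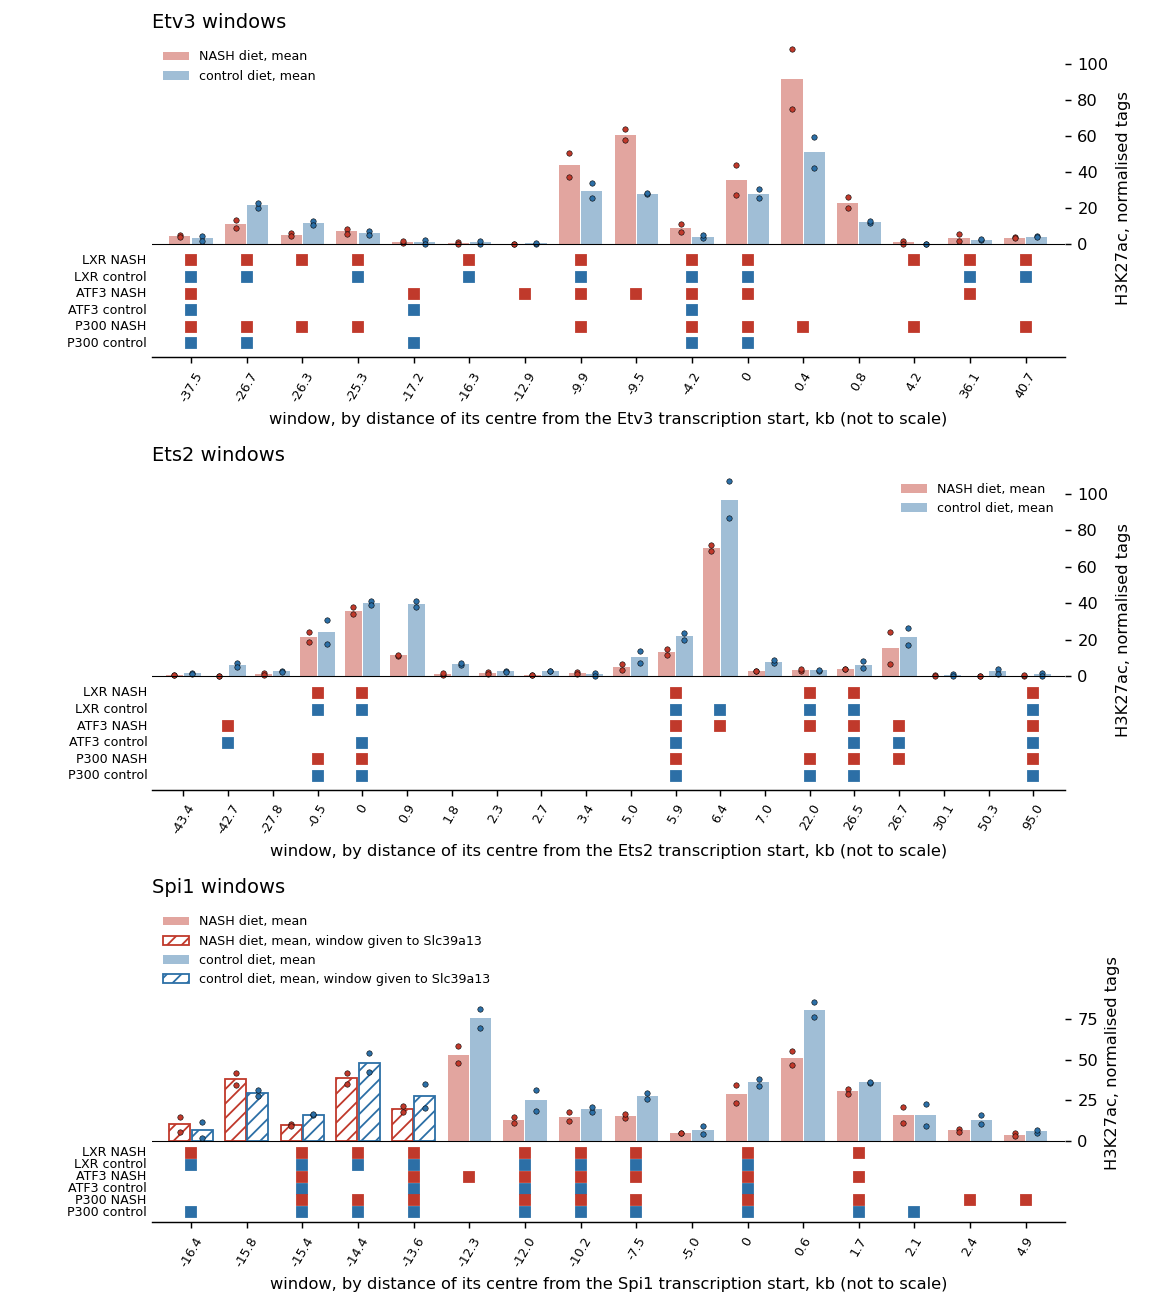
H3K27ac of every window at Etv3, Ets2 and Spi1 in normalised tags (bars: means, points: the 2 libraries per diet), in order of position, with squares where a LXR, ATF3 or P300 site of that diet overlaps the window. NASH-only ATF3 squares stand over 5 Etv3 windows, those at -9877, -9532 and -10 bp among them, the lowered Ets2 window at 944 bp has no square, and hatched bars at Spi1 are the 5 windows that the table gives to Slc39a13.

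The lists of reproducible binding sites held 120 LXR sites at these genes in NASH and 102 in control, 94 ATF3 sites in NASH and 50 in control, and 125 P300 sites in NASH and 66 in control. A site entered a list if it was reproducible between the 2 libraries of that diet (irreproducible discovery rate, IDR), so there is 1 list per factor and diet, no replicate and no test. The lists themselves differ in length in the same direction, with 51709 and 44463 LXR sites, 38828 and 16109 ATF3 sites and 52628 and 25219 P300 sites in NASH and in control. Of the NASH sites at these genes, 25.8% for LXR, 50% for ATF3 and 52% for P300 overlapped no control site, against 29.3%, 65.7% and 56.7% over the whole NASH lists. Of the control sites, 12.7%, 6% and 10.6% overlapped no NASH site, against 17.8%, 17.4% and 10.1% over the whole control lists. The shares of sites in 1 diet alone were thus lower at the ETS genes than in the whole lists in every pair except P300 in control, and were not tested.

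**Figure D4:**
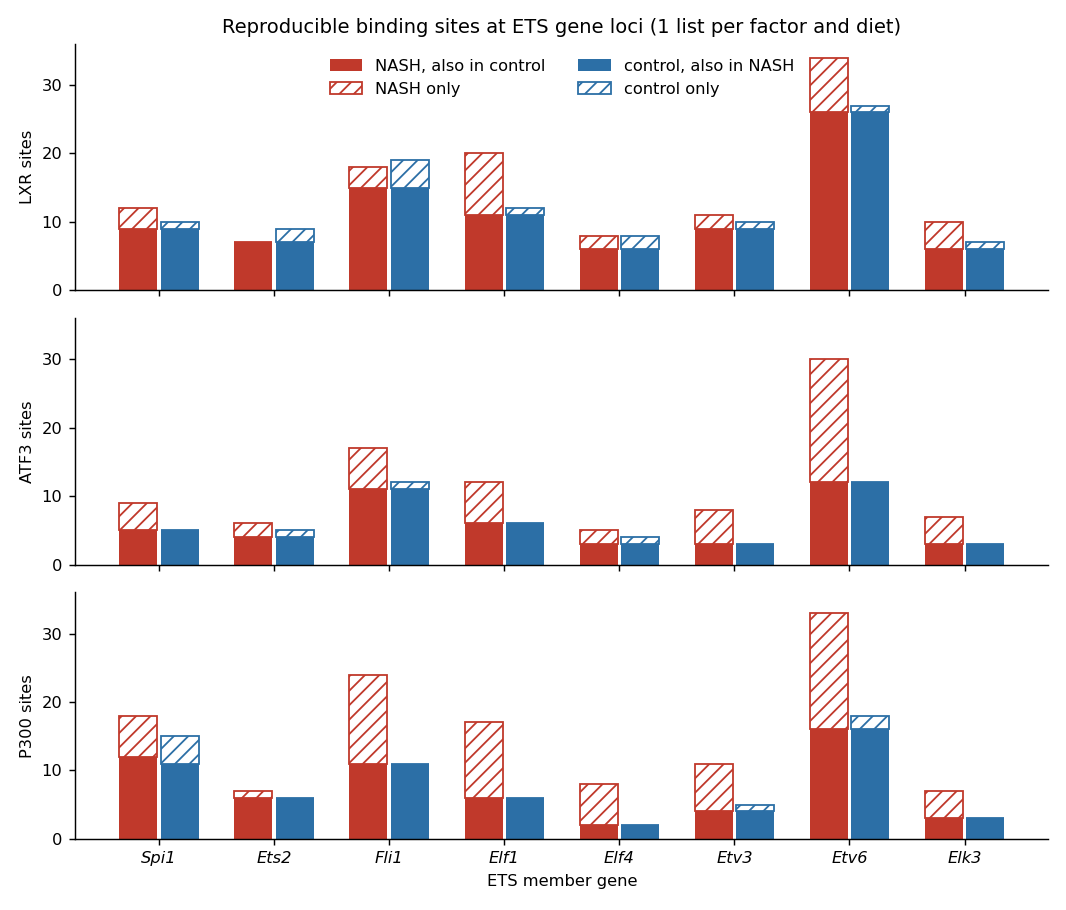
Number of LXR, ATF3 and P300 sites at each ETS gene in the NASH list (left bar) and in the control list (right bar); filled parts overlap a site of the other diet and hatched parts do not. ATF3 sites number 30 in NASH and 12 in control at Etv6, and for Ets2 the bars are of like height.

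Among the windows of the ETS genes, 55.3% overlapped an ATF3 site in NASH and 33.3% in control, against 42% and 21.4% of all windows. P300 sites overlapped 68.1% in NASH and 38.3% in control, against 58.9% and 32.3% of all windows, and LXR sites 62.4% in NASH and 57.4% in control, against 57.7% and 52.7%. All 3 factors met at 61 of the 141 windows in NASH (43.3%, against 32.8% of all windows) and at 31 in control (22%, against 14.6%). Of these, 29 windows were shared between the diets (20.6%, against 12.4%), and 29 windows had no site in either diet (20.6%, against 24.3%). Windows with all 3 factors numbered 21 of 36 in NASH and 7 in control at Etv6, 12 of 22 in NASH and 8 in control at Fli1, and 9 of 13 in NASH and 3 in control at Elf1. Ets2 had 4 of 20 in NASH and 4 in control, with 11 windows that held no site.

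Gene by gene, ATF3 had 30 sites in NASH and 12 in control at Etv6, 17 and 12 at Fli1, 12 and 6 at Elf1, 9 and 5 at Spi1, 8 and 3 at Etv3, 7 and 3 at Elk3, 6 and 5 at Ets2 and 5 and 4 at Elf4. The NASH count was the larger at each of the 8 genes, as it was for the P300 lists. The whole NASH lists are also the longer ones, with 38828 sites against 16109 for ATF3 and 52628 against 25219 for P300. P300 had 33 sites in NASH and 18 in control at Etv6, 24 and 11 at Fli1, 17 and 6 at Elf1, 18 and 15 at Spi1, 11 and 5 at Etv3, 8 and 2 at Elf4, 7 and 3 at Elk3 and 7 and 6 at Ets2. LXR had 34 and 27 at Etv6, 20 and 12 at Elf1, 18 and 19 at Fli1, 12 and 10 at Spi1, 11 and 10 at Etv3, 10 and 7 at Elk3, 8 and 8 at Elf4 and 7 and 9 at Ets2. Fli1 and Ets2 thus had fewer LXR sites in NASH than in control.

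The authors' enrichment score, which the LXR and P300 lists give for each site, ranks sites within a list. At these genes, sites found in both diets ranked high, with a median percentile of 66.7 in the NASH LXR list and 80.0 in the NASH P300 list. Sites in NASH alone ranked lower, at medians of 22.97 and 34.6. The same medians were not taken over the whole lists, so the difference cannot be read as particular to the ETS genes. No NASH-only site at these genes ranked above percentile 50.5 for LXR or 77.5 for P300, the top P300 site being at Elf4, 38330 bp past the start.

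At Etv3 an ATF3 site at -9578 bp lay over the window that was raised, and another at -9877 bp over its neighbour. Both were in the NASH list alone, at the highest IDR score of 1000. Over the neighbour, a P300 site at -9878 bp (percentile 65.3) was likewise in NASH alone. The LXR site there, at -9876 bp, was in both diets, at percentile 76.6 in NASH and 65.8 in control. No LXR or P300 site of either diet overlapped the raised window at -9532 bp. Over the promoter, the ATF3 site at -52 bp was in NASH alone and covered both ETS cores printed above, and P300 sites were in both diets. The P300 site at 416 bp, over the strongest window, was in NASH alone. The strongest LXR site of Etv3 was at 40846 bp, at percentile 91.1 in NASH and 92.9 in control (40816 bp), and the strongest P300 site of NASH was at -4239 bp, at percentile 87.4.

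At Ets2 the promoter had an ATF3 site in control alone (68 bp, IDR score 786), 1 of 3 control-only ATF3 sites at the 8 genes, together with a P300 site that ranked at percentile 96.1 in NASH (50 bp) and 99.0 in control (64 bp). In NASH alone, ATF3 sites were found at 6391 bp, over the strongest window, and at 21940 bp. LXR sites at 22006, 26466 and 94952 bp ranked at percentiles 96.9, 96.1 and 90.1 in NASH and had partners in control at percentiles 97.6, 97.3 and 95.0. At Ets2, no LXR site was in NASH alone and 2 were in control alone.

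At Spi1, LXR, ATF3 and P300 met in both diets upstream, under the window at -13604 bp. There P300 ranked at percentile 99.2 in NASH (-13630 bp) and 99.4 in control (-13576 bp), and LXR at 93.1 in NASH and 95.7 in control. All 3 met again upstream under the window at -11978 bp, where LXR ranked at percentile 97.03 in NASH (-12018 bp) and 97.7 in control (-12026 bp) and P300 at 99.1 in NASH and 97.6 in control. The promoter had LXR, ATF3 and P300 sites in both diets, P300 at percentile 95.7 in NASH and 92.0 in control. In NASH alone, 4 ATF3 sites lay at -7413, -6258, -5624 and 1694 bp, and 3 of these had IDR scores between 555 and 616, near the lowest of the lists (540).

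Elk3 had the strongest LXR site of the 8 genes, in intron 2 at 49930 bp, at percentile 99.4 in NASH and 99.5 in control. The window there had 7.47 and 11.96 normalised tags in the NASH libraries, against 7.39 and 3.54 in the control libraries. In intron 1 (1391 bp) LXR, ATF3 and P300 sites were all in NASH alone, over a window with 6.40 and 13.5 in the NASH libraries, against 2.11 and 4.86 in the control libraries, and an adjusted p of 0.172 in limma. Fli1 had LXR at percentile 98.9 in NASH (66290 bp) and 98.6 in control (24623 bp), and Elf1 at 99.1 in NASH and 97.1 in control at 27923 bp (NASH) and 27916 bp (control) from its outer start. Etv6 had its strongest LXR site at 29546 bp, at percentile 96.5 in NASH and 97.9 in control, and Elf4 stood lower, at 56.0 in NASH and 58.5 in control.

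Windows were also grouped by whether a factor's site was in NASH alone. With a NASH-only ATF3 site, the median log2 change relative to all windows was 0.35 over 22 member windows, against 0.12 over 8615 windows of the whole table. With a NASH-only P300 site it was 0.36 over 26 windows, against 0.07 over 9946. With a NASH-only LXR site it was 0.03 over 11 windows, against 0.16 over 3898. With sites in both diets the medians were 0.13 over 28 windows, against 0.04 over 8166, for ATF3 and 0.13 over 37, against -0.01 over 15104, for P300. For LXR sites in both diets the median was 0.33 over 43 windows, against -0.01 over 19798, and without an LXR site it was -0.21 over 23, against 0.00 over 9488. The NASH-only windows thus had the higher median of these classes for ATF3 and P300 at the ETS genes, and the windows bound in both diets for LXR. By open chromatin, the 24 windows whose peak was in the control list alone had a median of -0.30, against -0.18 over 7972, and the 3 windows of the 20-week list alone 1.02, against 0.34 over 2074. Ets2 had 13 of its 20 windows in the control list alone, and Etv3 had 4 of 16. These windows share libraries and genes, and the differences were not tested.

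Calls in lists of other genes are to be read against the shares over all genes, 2.89% raised and 11.0% lowered under the authors' scaling and 7.25% and 6.19% under TMM. Other ETS genes numbered 15 of 18 in the table and 9 were tested, of which 0 were raised and 3 were lowered, with a median log2 change of -0.09 relative to all genes. Under TMM 0 were raised and 2 were lowered. Etv1, a factor of the PEA3 group, had 72.5 and 63.4 normalised tags in the NASH libraries, against 187 and 188 in the control libraries (adjusted p = 3.1e-05 in limma). Spic, a relative of PU.1 known from red pulp macrophages of the spleen, had 98.7 and 87.4 in the NASH libraries, against 185 and 174 in the control libraries (adjusted p = 0.00145 in limma). Both were also lowered under TMM. Etv5 was also lowered, at 73.6 and 64.0 in the NASH libraries, against 111 and 106 in the control libraries (adjusted p = 0.0406 in limma), but not under TMM (0.225).

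Of the partner factors of PU.1, 15 of 16 were in the table and 14 were tested, with 1 raised (Cebpb), 1 lowered (Klf4) and a median of 0.22. Cebpb, which encodes C/EBP beta, had 110 and 111 normalised tags in the NASH libraries, against 83.5 and 57.9 in the control libraries (adjusted p = 0.0492 in limma, 0.000647 under TMM). Under TMM 4 were raised, Cebpa and Runx1 among them, and Klf4 was not lowered. Irf8, the IRF partner in macrophages, overlapped between the diets, at 371 and 350.5 in the NASH libraries, against 421 and 360.4 in the control libraries.

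All 26 macrophage genes known as PU.1 targets were tested, and 0 were raised and 3 lowered, with a median of -0.04. Under TMM 2 were raised and 1 was lowered. Csf3r and Lyz2 were lowered under the authors' scaling (adjusted p = 0.0353 and 0.0360 in limma) and not under TMM, where Syk and Mpeg1 were raised (0.00552 and 0.0157). Csf1r, the receptor that macrophages need to survive, had 152 and 121 in the NASH libraries, against 177 and 111 in the control libraries. Of 9 tested genes of the MAP kinase pathway that acts on ETS factors, out of 10, 0 were raised and 1 was lowered, with a median of 0.12. It was Mapk8, which encodes JNK1, with 32.0 and 43.2 in the NASH libraries, against 73.9 and 74.7 in the control libraries (adjusted p = 0.0140 in limma, 0.0431 under TMM).

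**Figure D5:**
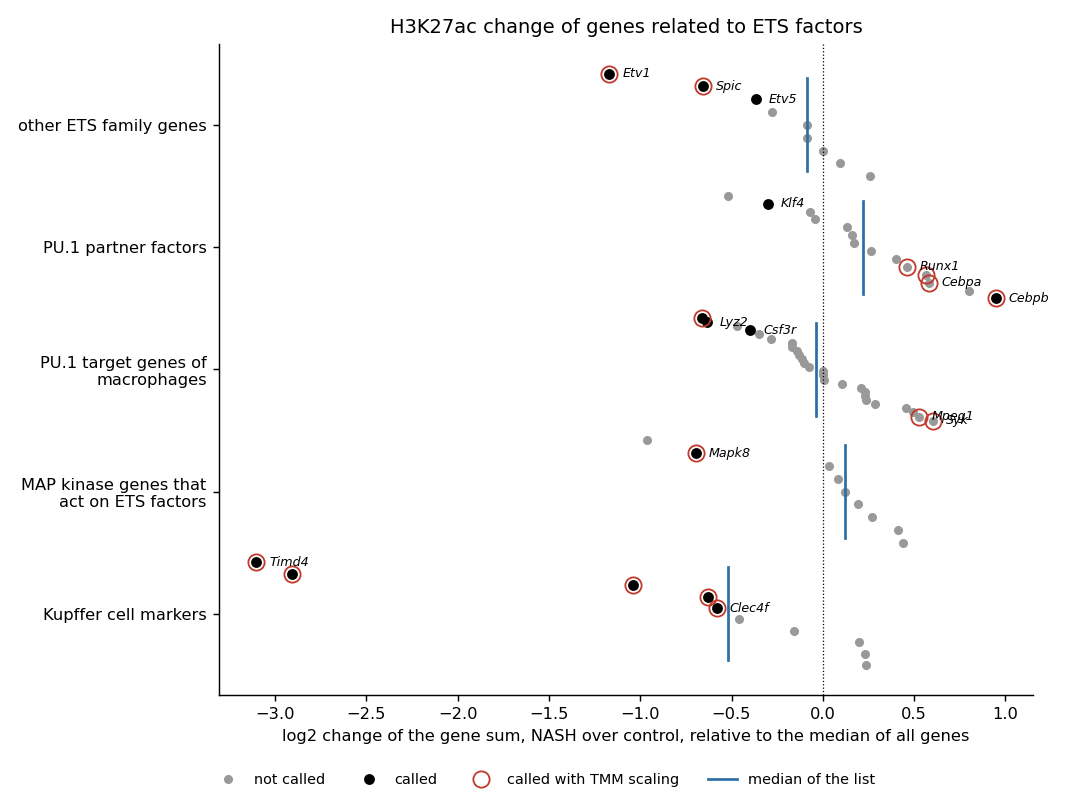
Log2 change of the H3K27ac gene sum (NASH over control, relative to the median of all genes) for the tested genes of 4 lists and for the Kupffer cell markers; black points were called under the authors' scaling and circles under TMM, and labels mark called genes that the text names. Cebpb lies at 0.95, Etv1 at -1.17 and Timd4 at -3.10.

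Markers of the sorted cell moved beside these results. Of 10 Kupffer cell markers, all tested, 5 were lowered under both scalings, and the sum of the list was 1549 and 1416 normalised tags in the NASH libraries, against 2193 and 2186 in the control libraries. Timd4, which encodes the Tim4 used in the sort, had 21.3 and 26.0 in the NASH libraries, against 257 and 256 in the control libraries, and Clec4f had 166 and 181 in the NASH libraries, against 312 and 323 in the control libraries. Clec1b, Cd5l and Csf1r were not called. The 5 monocyte markers summed to 554 and 542 in the NASH libraries, against 614 and 502 in the control libraries. Under TMM 3 were raised (Ly6c2, Cx3cr1 and Itgax) and 1 was lowered (Plac8). Ccr2 was not called under either scaling, with 28.3 and 20.8 in the NASH libraries, against 36.96 and 33.6 in the control libraries. Under the authors' scaling Itgax was raised (83.2 and 73.8 in the NASH libraries, against 19.02 and 17.3 in the control libraries) and Plac8 lowered (123 and 98.3 in the NASH libraries, against 301 and 193 in the control libraries). Of 10 endothelial markers 8 were in the table, with sums of 77.3 and 68.1 in the NASH libraries, against 140.5 and 97.7 in the control libraries. Of the 3 that were tested, 2 were lowered under both scalings and the median was -0.93 relative to all genes. Cdh5 had 4.80 and 5.72 in the NASH libraries, against 17.95 and 20.8 in the control libraries (adjusted p = 0.0137 in limma), and Stab2 had 17.1 and 13.5 in the NASH libraries, against 49.6 and 26.97 in the control libraries (adjusted p = 0.0296 in limma).

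Markers of the other 6 types were low, all sums of a list being between 6.63 and 114 normalised tags. Of the B cell, T cell, neutrophil, platelet, hepatocyte and stellate cell lists, 4 of 7, 3 of 7, 5 of 6, 2 of 6, 3 of 6 and 1 of 6 genes had a window, and 0, 1, 0, 0, 0 and 0 of these were raised. Csf3r of the neutrophil list was lowered, as given above, and under TMM Apoa1 of the hepatocyte list was raised as well. The raised gene was Cd3d, with 12.3 and 21.8 in the NASH libraries, against 3.17 and 3.54 in the control libraries. The value of control library 1 equals the floor of a window there. Cd4, the other of the 2 T cell markers tested, overlapped between the diets. It had 6.93 and 7.28 in the NASH libraries, against 12.7 and 2.65 in the control libraries. No marker with a window was at 0 in all 4 libraries, and Cd3e, Ly6g, Gp9 and Col1a1 had no window. The part of these markers in the changes at Etv3, Spi1 and Ets2 was not tested.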

How the data were processed

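H3K27ac was deposited as a signal in windows: tag counts that the authors scaled with HOMER to 10000000 per library (mm10), per the file headers. Windows of 124 to 550 bp (median 204) came from merged reproducible open chromatin peaks, as those headers state. Bowtie2, HOMER, DESeq2, mm10 and GRCm38 are named in the submitters' processing notes, without versions. Each site list carries a reproducibility (IDR) score as deposited, and the LXR and P300 lists also carry the authors' enrichment score. The IDR threshold was 0.05 for LXR and P300, per the file headers. For ATF3 no threshold is stated in the headers or labels, and the unnamed score column was read as the IDR score. The 10 inputs and the peritoneal macrophage library were not analysed here.

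Windows were summed per gene, leaving out 12 windows without a gene name (0.0580% to 0.132% of tags). Tests used limma-trend with a pseudocount of 1 before taking log2 (limma 3.58.1 in R 4.3.3), after edgeR's filterByExpr, with Benjamini-Hochberg adjustment over all windows or genes. The planned design assumed counts; as the values are normalised, a count test became an alternative. Whole tags within 0.02 came out for 100% of values, and edgeR 4.0.16 on them called 857 genes raised and 764 lowered. Other alternatives were TMM, DESeq2 1.42.0, no filter, pseudocounts of 0.5 and 4, each library left out, a replicate block, windows within or over 1 kb of the start, locus flanks of 0 and 20 kb and an IDR of 0.01. Sites were shared at an overlap of 1 bp. The fitting code was tested on simulated data. Floors cover counting error only.

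The 8 genes and the gene lists were chosen with earlier results of these data known. By rule, the text names for each gene the window nearest the start, the window with the highest mean and the called windows. Where none was called, the one with the smallest adjusted p is named. The rule also covers all windows upstream of Spi1, the strongest LXR sites, and up to 4 called genes of a list and direction. The plan asked for the strongest ATF3 and P300 sites too, which are named for some genes only. Other windows, sites and list genes, such as Irf8 and Csf1r, were picked after their values were seen, and NASH-only sites elsewhere are given by count. The nearest profiles were sought for Spi1 and for the gene with the largest change relative to the median. A few list genes are counted but not reported by name here.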

Additional observations from a re-analysis of the deposited data

How the results depend on the processing

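The calls at these genes rest on 2 libraries per diet and on the scaling. Of the windows, 1 was raised under the authors' scaling, 2 under TMM and in edgeR, and 0 with no filter on low values. Leaving out 1 library gave 0 to 2 raised windows (0 without either NASH library, 2 without control library 2). The count of lowered windows was 1, with 0 in DESeq2 and 1 to 3 when 1 library was left out (3 without control library 2). Of the gene sums, 1 was raised, with 2 in edgeR, 0 with no filter, 0 from windows within 1 kb of the start or from those beyond it, and 0 to 1 when 1 library was left out (0 without NASH library 1). The count of lowered genes was 2, with 0 under TMM, in edgeR, in DESeq2 and from windows within 1 kb, and 0 to 2 when 1 library was left out (0 without NASH library 2). The log2 change relative to the median turned to -0.13 for Elf1 from windows within 1 kb. Leaving out 1 library gave -0.065 (without control library 1) to 0.187 for Fli1, and -0.100 to 0.062 (without control library 1) for Elf4, which was also above 0 without NASH library 1 (0.02). The cause was not tested. Site counts stayed within 1.5 times under each flank and the IDR of 0.01. Libraries with the same number did not visibly deviate together (correlation across windows of 0.04 between deviations from the group means). Many windows hold few tags, and counting noise can hide a shared deviation. The value therefore cannot show whether the labels' numbers mark pairs. With the replicate block the counts were 1 raised and 1 lowered window and 1 raised and 2 lowered genes, as without it. The adjusted p-values of these gene sums in limma were smaller with the block. They were 0.00203 against 0.0224 for Etv3, 0.000167 against 0.00441 for Ets2 and 0.00234 against 0.0151 for Spi1. A control library of 9468035 tags sets the coarsest floor, 3.17 normalised tags.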
